A study of Arabidopsis thaliana with 22 samples.

Results

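The aitf1-1 asr3-1 double mutant of Arabidopsis thaliana was compared with the wild type across all 3 sampled times, using 9 double-mutant and 9 wild-type seedling RNA-seq libraries out of 22 libraries in the series. The libraries were chosen by their labels alone: every seedling library entered, with time held as a factor, so that each gene received a single genotype effect averaged over 0, 1 and 3 h. The series title names the question, which is how a pair of trihelix transcription factors acts together on plant defence. Wild-type seedlings were Col-0 and mutant seedlings carried aitf1-1 and asr3-1, all were labelled as 10 days old although the growth text speaks of 14-day-old seedlings, and each genotype had 3 libraries at each time. The labels do not say what the seedlings were exposed to at 0 h, nor what lesion each allele carries, and the single mutants were not analysed here, so the contribution of each allele cannot be told apart. A second tissue served as a readout outside the comparison: leaves of 3-week-old Col-0 plants and of a line overexpressing AITF1, called OXAITF1 in the labels, with 2 libraries each; no source used here states the promoter or the number of independent lines. Nothing in the labels says that replicates were separate cultures, so p-values reflect variation among the libraries at hand, which could be technical.

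Trihelix factors are plant DNA-binding proteins that recognise GT elements, short promoter sequences with a core of G and T bases. Members act as activators or as repressors, and ASR3 is known as a repressor of genes induced when cell-surface receptors detect microbial patterns. Pattern detection sets off kinase cascades, early marker genes such as FRK1, and slower salicylic acid, jasmonate and glucosinolate responses.

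Seedling libraries held 17.1 to 21.6 M counts, so that 1 count corresponded to 0.0462 to 0.0584 CPM (read counts relative to library size, with TMM scaling wherever a gene's level is given). Of 33318 genes in the table, 21028 passed the filter on low counts and were tested. Time accounted for 96.4% and 94.2% of the first 2 principal components of the log2 CPM values, which held 53% and 16.5% of the variance. Genotype accounted for 74.2% of the fourth component, which held 3.71%.

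Across the 3 times 255 of 21028 genes (1.21%) were called at an adjusted p under 0.05 with edgeR's quasi-likelihood test, of which 173 (0.823%) were higher and 82 (0.39%) were lower in the double mutant. Most differences were small. The median log2 fold change was 0.44 among the higher genes and -0.33 among the lower ones, 178 of the 255 changed by less than 1.5-fold, and 27 changed by at least 2-fold (17 higher, 10 lower). The excess of higher over lower calls depended on the tool, and the number of lower calls on 1 library. DESeq2 called all 255 genes among 608, with 280 higher and 328 lower. Leaving out wild type 0 h replicate 1 raised the lower calls from 82 to 163, although higher calls still outnumbered them. Overlap was also described without a model, in the same libraries that chose the genes, a choice that favours separation. At each of the 3 times the 3 mutant libraries lay wholly above the 3 wild-type libraries for 117 of the 173 higher genes. Among all those tested this held for 126 genes (0.599%). Mutant libraries lay wholly below for 38 of the 82 lower genes, against 52 (0.247%) of all tested. With times pooled, all 9 mutant libraries lay above all 9 wild-type libraries for 61 higher genes (61 of all tested, 0.29%) and below them for 13 lower genes (14 of all tested, 0.0666%). When each library was left out in turn, 176 of the 255 genes (69.0%) were called every time, 129 of them higher and 47 lower.

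**Figure D1:**
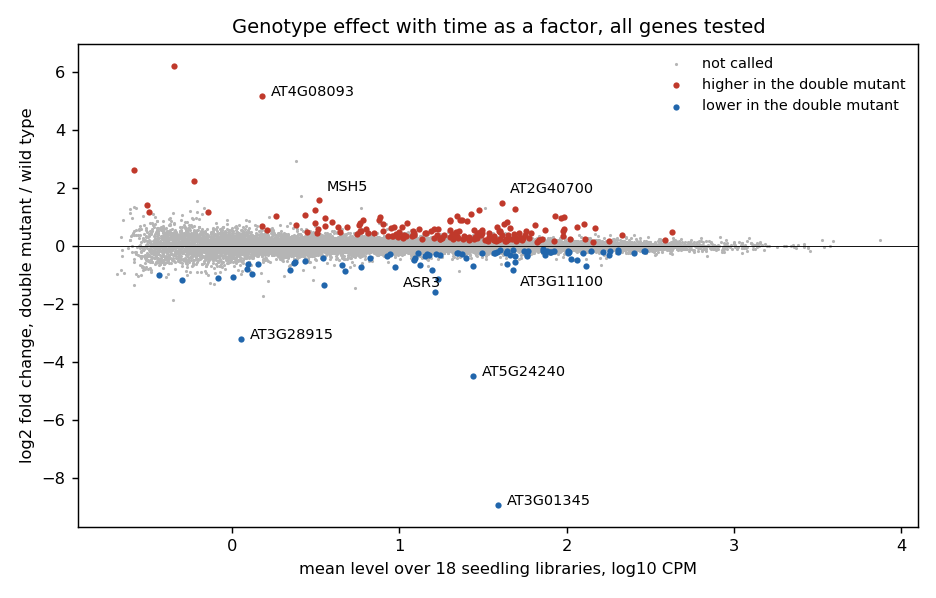
Each point is 1 of 21028 genes, with its mean level over the 18 seedling libraries (log10 CPM) on the horizontal axis and the log2 fold change of the double mutant over the wild type on the vertical axis. Red marks the 173 genes called higher and blue the 82 called lower; most lie within 1 log2 unit of 0, while AT3G01345 at -8.94 and AT5G24240 at -4.49 stand apart below.

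The targeted genes were examined first. ASR3 is taken here as AT2G33550, chromosome 2, 14209982 to 14211693, a pairing known from the literature and not given by the reference, which calls the product a Homeodomain-like protein. Its level in the wild type was 12.9, 11.2 and 11.8 CPM at 0 h, 11.4, 9.7 and 11.4 at 1 h, and 12.1, 12.7 and 13.7 at 3 h. In the double mutant it was 7.55, 7.97 and 6.45 CPM at 0 h, 7.96, 7.06 and 5.76 at 1 h, and 6.12, 7.16 and 7.49 at 3 h. Every mutant library lay below every wild-type library, yet transcript remained (log2 fold change -0.75, SE 0.07, adjusted p = 3e-06 with edgeR). The reference names no AITF1 locus; AT3G11100 (chromosome 3, 3476187 to 3477900), a trihelix gene, is reported with it because it rose from 14.4 and 14.4 CPM in wild-type leaves to 2954 and 3839 CPM in OXAITF1 leaves. In seedlings AT3G11100 stood at 69.9, 70.3 and 70.4 CPM at 0 h, 46.5, 52.9 and 47.4 at 1 h, and 65.8, 66.0 and 60.4 at 3 h in the wild type. The double mutant had 39.5, 43.9 and 40.3 CPM at 0 h, 27.2, 29.5 and 23.6 at 1 h, and 32.7, 35.5 and 37.3 at 3 h. Again no library overlapped, and the gene fell to 0.561 of the wild-type level (log2 fold change -0.83, SE 0.05, adjusted p = 5.4e-10 with edgeR). Both genes carried reads in all 9 mutant libraries, and counts per whole gene do not show whether those reads come from an intact transcript.

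Of 27 trihelix genes tested, 3 were lower (beside 0.39% of all genes) and 0 were higher, with a list median of -0.04 beside 0.01 over all genes. Since 2 of the 3 are the genes just described, which were picked beforehand, the count says nothing about the family. The third was AT5G01380, which averaged 2.87 CPM in wild-type and 1.90 CPM in mutant seedlings (log2 fold change -0.57, SE 0.13, adjusted p = 0.0399 with edgeR). Its libraries overlapped, and the call was lost in 12 of the 18 fits that left out 1 library, with an adjusted p up to 0.0941. The other 24 members ranged from -0.33 to 0.20.

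Among the lower genes, AT3G01345, which encodes an uncharacterized protein (chromosome 3, 129138 to 130749), differed most. Wild-type libraries held 9.33, 16.8 and 147 CPM at 0 h, 106, 174 and 122 at 1 h, and 71.2, 33.2 and 14.9 at 3 h. Mutant libraries held 0.293, 0.089 and 0.237 CPM at 0 h, 0.103, 0.104 and 0.102 at 1 h, and 0.0941, 0.208 and 0.116 at 3 h. The wild-type values spread widely within each time, and even the lowest, 9.33 CPM, was above the highest mutant value of 0.293 CPM (log2 fold change -8.94, SE 0.73, adjusted p = 1.8e-07 with edgeR). In raw counts the gene had 13764 reads over the 9 wild-type libraries and 26 over the 9 mutant libraries, a ratio of 536 with a 95% interval of 366 to 821 that covers counting error only. AT5G24240, a phosphatidylinositol 4-kinase gamma-like protein (chromosome 5, 8230916 to 8234150), came next. Its wild-type level was 29.9, 26.3 and 9.92 CPM at 0 h, 61.3, 19.2 and 101 at 1 h, and 52.0, 95 and 80.0 at 3 h. The mutant level was 1.52, 1.42 and 1.57 CPM at 0 h, 2.38, 2.7 and 1.84 at 1 h, and 3.25, 3.11 and 2.32 at 3 h. The groups did not overlap, and the wild type exceeded the mutant 22.4-fold in the fit (log2 fold change -4.49, SE 0.31, adjusted p = 2e-08 with edgeR). In leaves AT5G24240 had a log2 fold change of 0.00 (SE 0.17) between OXAITF1 and the wild type, and AT3G01345 was not among the genes tested there.

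The 250 bases before the annotated start of AT3G01345 and AT5G24240 are shown because these had the lowest log2 fold changes among the lower genes with a mean of at least 1 CPM. They are RefSeq sequence of the TAIR10.1 build, written 5′ to 3′ on the strand of the gene (chr3:128888-129137 on the plus strand for AT3G01345 and chr5:8234151-8234400 on the minus strand for AT5G24240). Capitals would mark the GT elements GGTTAA and GGTAAA on either strand, and neither sequence holds one.
AT3G01345: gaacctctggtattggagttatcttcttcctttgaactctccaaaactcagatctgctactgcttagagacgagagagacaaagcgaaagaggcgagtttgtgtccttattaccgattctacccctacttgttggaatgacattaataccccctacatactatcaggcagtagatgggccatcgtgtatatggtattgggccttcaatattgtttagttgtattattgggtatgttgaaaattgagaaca
AT5G24240: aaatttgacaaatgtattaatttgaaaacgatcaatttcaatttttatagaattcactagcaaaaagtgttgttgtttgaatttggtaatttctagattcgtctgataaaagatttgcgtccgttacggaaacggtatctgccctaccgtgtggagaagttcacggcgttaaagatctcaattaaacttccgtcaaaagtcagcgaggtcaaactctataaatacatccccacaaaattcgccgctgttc

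A pair of nearby genes for solute carrier family 35 proteins, a family of membrane transporters, moved in opposite directions. AT3G59320 (chromosome 3, 21924488 to 21926895) stood at 20.7, 23.7 and 21.5 CPM at 0 h, 30.1, 24.3 and 23.0 at 1 h, and 18.5, 25.5 and 23.4 at 3 h in the wild type. The mutant had 10.4, 11.5 and 9.39 CPM at 0 h, 11.8, 12.4 and 11 at 1 h, and 10.7, 9.49 and 8.76 at 3 h. All 9 mutant libraries were below all 9 wild-type libraries (log2 fold change -1.14, SE 0.07, adjusted p = 5.3e-09 with edgeR). Its neighbour AT3G59340 (chromosome 3, 21928692 to 21931570) was far less abundant, at 1.03, 1.58 and 1.3 CPM at 0 h, 3.21, 1.38 and 2.19 at 1 h, and 1.82, 1.76 and 1.46 at 3 h in the wild type. Mutant libraries held 3.51, 4.36 and 3.6 CPM at 0 h, 3.87, 5.45 and 4.43 at 1 h, and 3.25, 1.87 and 2.73 at 3 h. At each time the mutant libraries were higher, although a wild-type library at 1 h exceeded some mutant libraries of another time (log2 fold change 1.07, SE 0.17, adjusted p = 0.00146 with edgeR). Without the 0 h libraries that call was lost (adjusted p = 0.115). The handling of reads that match both genes is not given in the sources used here, so the split of reads within the pair is uncertain. Their upstream sequences (chr3:21926896-21927145 and chr3:21931571-21931820, both on the minus strand, TAIR10.1, RefSeq) are shown for comparison, and neither holds GGTTAA or GGTAAA on either strand.
AT3G59320: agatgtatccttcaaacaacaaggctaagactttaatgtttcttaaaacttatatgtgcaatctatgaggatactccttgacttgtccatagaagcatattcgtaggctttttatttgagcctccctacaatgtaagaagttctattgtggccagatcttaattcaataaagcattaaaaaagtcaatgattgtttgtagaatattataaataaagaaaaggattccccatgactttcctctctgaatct
AT3G59340: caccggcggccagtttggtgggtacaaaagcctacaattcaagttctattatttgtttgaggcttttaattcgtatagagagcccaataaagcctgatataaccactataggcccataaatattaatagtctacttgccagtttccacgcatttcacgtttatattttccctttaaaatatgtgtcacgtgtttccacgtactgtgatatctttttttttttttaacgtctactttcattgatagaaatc

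The remaining strongly lower genes were of several kinds. AT3G28915, annotated as a pseudogene, fell from a mean of 2.06 CPM to 0.209 CPM without overlap (log2 fold change -3.21, SE 0.39, adjusted p = 5.4e-05 with edgeR). It was also lower in OXAITF1 leaves (leaf log2 fold change -5.50, SE 1.03, adjusted p = 0.0323 with edgeR). Wild-type leaves held 1.94 and 0.844 CPM and OXAITF1 leaves 0.0486 and 0.0 CPM, so the size of this change rests on values at the detection limit. FHIT, a fragile histidine triad protein, kept 19.1, 22.0 and 20 CPM at 0 h, 19.2, 19.8 and 19.8 at 1 h, and 19.9, 21.6 and 19.8 at 3 h in the wild type. In the mutant it had 10.8, 11.7 and 10.9 CPM at 0 h, 11.3, 11.9 and 8.77 at 1 h, and 10.6, 11.8 and 13.8 at 3 h. Neither genotype moved much with time, and no libraries overlapped (log2 fold change -0.84, SE 0.06, adjusted p = 5e-08 with edgeR). AT3G50845, a MIP18 family protein, fell from 6.09 to 3.35 CPM, also with no overlap (log2 fold change -0.86, SE 0.12, adjusted p = 0.00035 with edgeR). AT5G35940, a mannose-binding lectin, averaged 24.4 CPM in the wild type, where it ranged from 11.1 to 43.9, and 8.41 CPM in the mutant, where it ranged from 3.08 to 15.1 (log2 fold change -1.60, SE 0.27, adjusted p = 0.00266 with edgeR). Its groups overlapped, and the call was lost without the 3 h libraries (adjusted p = 0.122).

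HEI10, a RING protein needed for meiotic crossovers, showed the same overlap: the wild type had 2.29, 2.08 and 7.79 CPM at 0 h, 6.08, 9.98 and 6.41 at 1 h, and 5.29, 3.19 and 3.02 at 3 h. The mutant stayed near a constant level, with 2.17, 1.91 and 1.8 CPM at 0 h, 2.12, 1.61 and 1.68 at 1 h, and 2.17, 1.61 and 2.5 at 3 h. The fit gave log2 fold change -1.34, SE 0.26, adjusted p = 0.0079 with edgeR. The call, though not the direction, was lost without the 1 h libraries (log2 fold change -0.97, adjusted p = 0.363) and without the 3 h libraries (-1.57, adjusted p = 0.0567). AT4G14368, an RCC1 family protein, and CYP706A3, a cytochrome P450, had log2 fold changes of -1.09 and -0.99 (adjusted p = 0.0166 and 0.0142 with edgeR), starting from wild-type means of 1.40 and 1.76 CPM. AT4G14368 lost its call without the 1 h or the 3 h libraries (adjusted p up to 0.289), and CYP706A3 without those of any 1 time (adjusted p up to 0.273).

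Several of the higher genes separated the genotypes in every library. AT2G40700, a P-loop nucleoside triphosphate hydrolase (chromosome 2, 16976636 to 16979650), was at 23.3, 18.5 and 20.3 CPM at 0 h, 26.1, 23.3 and 20.3 at 1 h, and 21.8, 23.4 and 21.1 at 3 h in the wild type. In the mutant it was at 58.8, 60.3 and 58.9 CPM at 0 h, 65.3, 59.0 and 58.6 at 1 h, and 62.8, 60.8 and 60.1 at 3 h. The mutant level was 2.75-fold higher and hardly moved with time (log2 fold change 1.46, SE 0.05, adjusted p = 1.6e-12 with edgeR). ECT4 (AT1G55500, chromosome 1, 20719473 to 20722856) belongs to the ECT proteins, which bind RNA that carries the m6A methyl mark. Wild-type libraries held 24.4, 27.0 and 26.2 CPM at 0 h, 29.6, 32.0 and 34.5 at 1 h, and 25.7, 32.4 and 30.4 at 3 h. Mutant libraries held 70.2, 67.0 and 67.5 CPM at 0 h, 67.1, 73.7 and 75.3 at 1 h, and 62.8, 73.0 and 69.0 at 3 h. No libraries overlapped at any time (log2 fold change 1.26, SE 0.05, adjusted p = 1.2e-11 with edgeR). UBP20 (AT4G17895, chromosome 4, 9939666 to 9942988), a ubiquitin-specific protease that removes ubiquitin from proteins, had 14.2, 15.8 and 14.7 CPM at 0 h, 20.6, 22.9 and 20.3 at 1 h, and 16.3, 18.3 and 18.9 at 3 h in the wild type. The mutant had 41.7, 41.7 and 36.1 CPM at 0 h, 42.6, 44.7 and 47.0 at 1 h, and 41.3, 40.7 and 42.0 at 3 h. This was a 2.35-fold difference (log2 fold change 1.23, SE 0.06, adjusted p = 2.7e-11 with edgeR).

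Upstream sequences of these 3 genes are shown because their transcripts were higher in all 9 mutant libraries than in any wild-type library (RefSeq, TAIR10.1, all on the plus strand; chr2:16976386-16976635 for AT2G40700, chr1:20719223-20719472 for ECT4 and chr4:9939416-9939665 for UBP20). Capitals mark GGTTAA and GGTAAA or their reverse complements TTAACC and TTTACC.
AT2G40700: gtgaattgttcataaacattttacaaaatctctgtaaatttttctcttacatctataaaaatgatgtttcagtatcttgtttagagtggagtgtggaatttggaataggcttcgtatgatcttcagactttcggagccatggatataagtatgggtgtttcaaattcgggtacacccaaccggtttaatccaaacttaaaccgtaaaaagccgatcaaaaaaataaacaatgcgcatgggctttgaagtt
ECT4: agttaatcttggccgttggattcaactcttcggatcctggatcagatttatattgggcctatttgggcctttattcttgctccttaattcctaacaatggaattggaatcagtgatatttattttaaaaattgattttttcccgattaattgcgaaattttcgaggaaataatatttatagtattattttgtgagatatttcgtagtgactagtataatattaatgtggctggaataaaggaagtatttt
UBP20: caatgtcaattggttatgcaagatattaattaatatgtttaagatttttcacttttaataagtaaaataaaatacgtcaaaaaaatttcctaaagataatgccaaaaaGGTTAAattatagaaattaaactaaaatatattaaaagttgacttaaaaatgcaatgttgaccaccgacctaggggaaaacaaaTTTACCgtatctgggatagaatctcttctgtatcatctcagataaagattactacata
UBP20 holds 1 of each element, while AT2G40700 and ECT4 hold 0. Over all called genes with an annotated start, GGTTAA or its reverse complement occurred in 32 of 172 upstream windows of higher genes (18.6%) and 14 of 82 of lower genes (17.1%), beside 3164 of 21006 windows of all tested genes (15.1%). For GGTAAA the shares were 16.3%, 14.6% and 15.0%. A match is only a match of letters and does not show binding.

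SAC8 (AT3G51830, chromosome 3, 19220116 to 19225280), a phosphatase of membrane phosphoinositides, followed time in both genotypes. Its wild-type level was 85.1, 75.8 and 76.4 CPM at 0 h, 53.6, 53.7 and 54.1 at 1 h, and 65.5, 58.6 and 63.7 at 3 h. The mutant level was 156, 140.2 and 153 CPM at 0 h, 109, 110.3 and 111 at 1 h, and 119, 129 and 129 at 3 h. Mutant libraries were higher at each time, by 0.92 (0 h), 1.03 (1 h) and 1.01 (3 h) on the log2 scale (log2 fold change 0.99, SE 0.04, adjusted p = 3e-12 with edgeR). AT2G43210, a ubiquitin-like superfamily protein, had 64.1, 61.2 and 57.7 CPM at 0 h, 51.2, 56.6 and 52.2 at 1 h, and 52.5, 57.5 and 57.3 at 3 h in the wild type. The mutant had 124, 126 and 115 CPM at 0 h, 108, 110.1 and 105 at 1 h, and 109.6, 120.2 and 109 at 3 h. Its log2 fold change was 1.00, 1.02 and 1.02 at 0, 1 and 3 h, and the genotypes never overlapped (log2 fold change 1.01, SE 0.04, adjusted p = 1.6e-12 with edgeR). AT1G78420, a RING/U-box protein with the synonym DA2 in the reference, rose from 62.2 to 122 CPM (log2 fold change 0.97, SE 0.04, adjusted p = 4.1e-12 with edgeR), and AT5G65180, an ENTH/VHS family protein, rose from 17.2 to 36.5 CPM (log2 fold change 1.09, SE 0.05, adjusted p = 5.8e-11 with edgeR); neither showed any overlap.

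MSH5 (AT3G20475, chromosome 3, 7143418 to 7151047), a MutS homologue that acts in meiotic crossover formation, had the largest fold change among higher protein-coding genes with a mean of at least 1 CPM. Wild-type seedlings held 1.89, 2.13 and 1.4 CPM at 0 h, 2.01, 1.33 and 1.53 at 1 h, and 1.66, 1.99 and 1.1 at 3 h. Mutant seedlings held 4.86, 5.65 and 4.98 CPM at 0 h, 5.11, 5.09 and 4.79 at 1 h, and 5.18, 4.46 and 4.59 at 3 h. The groups did not overlap (log2 fold change 1.57, SE 0.11, adjusted p = 3.1e-08 with edgeR). RAD9, a cell cycle checkpoint control protein, averaged 1.21 CPM in wild-type and 2.43 CPM in mutant seedlings (log2 fold change 1.01, SE 0.15, adjusted p = 0.00048 with edgeR), and AT2G26270, a BRCT domain protein, which averaged 5.15 and 10.1 CPM (log2 fold change 0.98, SE 0.07, adjusted p = 5.7e-08 with edgeR). AT2G42510, annotated as a survival motor neuron interacting protein, rose from 1.91 to 4.40 CPM with a log2 fold change of 1.22 (SE 0.15, adjusted p = 4.5e-05 with edgeR). AT2G33205, a serinc-domain protein, rose from 2.46 to 4.72 CPM with overlapping libraries (log2 fold change 0.95, SE 0.17, adjusted p = 0.00356 with edgeR), and lost the call without the 0 h or the 1 h libraries (adjusted p up to 0.14).

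A few transcripts were close to absent in the wild type. AT4G08093, a transcribed pseudogene, had 13 counts over the 9 wild-type libraries and 523 over the 9 mutant libraries, a ratio of 39.7 (95% counting interval 23.0 to 75.1). Below 1 CPM on average, and named after its values were seen, the noncoding RNA AT2G01422 had 1 count in the wild type and 168 in the mutant. That ratio was 166, with a 95% counting interval of 29.4 to 6590. Mutant libraries themselves ranged from 0.0517 to 4.81 CPM for AT2G01422.

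**Figure D2:**
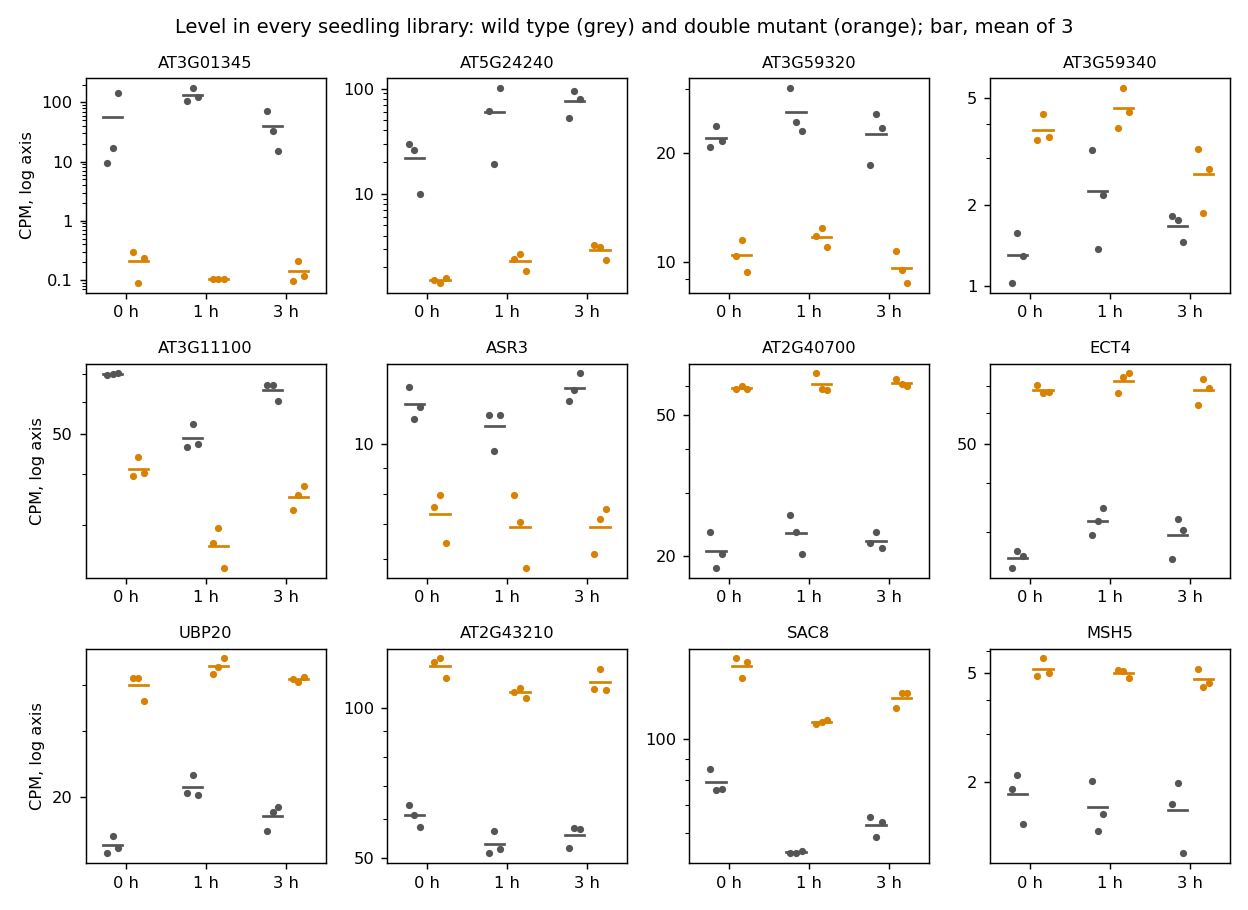
Each panel shows 1 gene, with time on the horizontal axis and the level in CPM on a log axis; grey points are the 3 wild-type libraries and orange points the 3 double-mutant libraries at each time, and bars are means. The 2 genotypes are apart at every time in all 12 panels, and for AT3G59340 only within each time, since the wild type reached 3.21 CPM at 1 h and the mutant 1.87 CPM at 3 h.

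Relatives of the leading genes were examined through lists of families and complexes. These lists were written with earlier results of these libraries known, so a called member is not independent evidence for its family. For each of these lists the share of all tested genes called higher is 0.823% and called lower 0.39%. Among 19 m6A methylation genes 2 were higher and 0 lower: with ECT4, its relative ECT3 rose from a mean of 118 to 179 CPM, with no overlap (log2 fold change 0.60, SE 0.05, adjusted p = 1.3e-07 with edgeR). The other 17, which include the methyltransferase subunits, ranged from -0.10 to 0.13. Of 7 NHX antiporters, which exchange sodium or potassium for protons across membranes, the 2 endosomal members were higher. NHX6 had 12.1, 14.6 and 15.6 CPM at 0 h, 21.9, 17.0 and 18.2 at 1 h, and 15.0, 17.1 and 16.3 at 3 h in the wild type. The mutant had 30.4, 32.0 and 26.0 CPM at 0 h, 35.4, 33.4 and 37.4 at 1 h, and 28.5, 28.0 and 25.3 at 3 h (log2 fold change 0.90, SE 0.07, adjusted p = 5.5e-08 with edgeR). NHX5 rose from 78.7 to 111 CPM (log2 fold change 0.50, SE 0.04, adjusted p = 7.3e-08 with edgeR), and neither gene had overlapping libraries. The other 5 NHX genes lay between -0.13 and 0.10.

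Histone deacetylases gave 2 higher genes of 13, beside 0.823% of all genes, both of the plant-specific HD2 type. HDT4 was at 12.5, 14.8 and 14.1 CPM at 0 h, 18.5, 14.7 and 17.4 at 1 h, and 9.84, 14.6 and 14.3 at 3 h in the wild type. In the mutant it was at 26.7, 29.6 and 29.6 CPM at 0 h, 32.5, 34.0 and 37.6 at 1 h, and 30.7, 25.1 and 23.2 at 3 h, without overlap (log2 fold change 1.04, SE 0.08, adjusted p = 3.7e-08 with edgeR). HD2C rose by a smaller amount, from 44.1 to 54.1 CPM (log2 fold change 0.29, SE 0.04, adjusted p = 0.00018 with edgeR). Of 28 ubiquitin-specific proteases, 2 were higher: besides UBP20, UBP21 rose from 8.37 to 10.9 CPM (log2 fold change 0.38, SE 0.07, adjusted p = 0.00684 with edgeR), a call lost without the 0 h or the 1 h libraries (adjusted p up to 0.263). UBP11 had a log2 fold change of 1.03 but was near the detection limit, at 0.196 and 0.392 CPM, and was not called (adjusted p = 0.311 with edgeR). Of the 2 SAC genes on the list, SAC8 was higher, while SAC9 was at -0.11 (SE 0.04, adjusted p = 0.174 with edgeR).

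Single members stood out in other complexes. APC11, the RING subunit of the anaphase-promoting complex that marks cell cycle proteins for degradation, rose from 4.32 to 7.36 CPM (log2 fold change 0.77, SE 0.10, adjusted p = 6.1e-05 with edgeR), and the other 12 subunits tested ranged from -0.12 to 0.10. PIR121, a subunit of the WAVE complex that activates actin branching, had 59.3, 64.4 and 61.7 CPM at 0 h, 57.6, 58.9 and 56.1 at 1 h, and 58.4, 53.8 and 58.4 at 3 h in the wild type. The mutant had 37.9, 47.9 and 42.5 CPM at 0 h, 39.9, 38.9 and 36.1 at 1 h, and 39.3, 41.3 and 36.0 at 3 h. It was lower without overlap (log2 fold change -0.56, SE 0.04, adjusted p = 1.1e-07 with edgeR), while the other 18 tested genes of the WAVE and ARP2/3 complexes lay between -0.10 and 0.10. Among 16 meiotic recombination genes MSH5 was higher and HEI10 lower, so the list had no common direction (median -0.01). MSH5 was also the single called gene of 9 mismatch repair genes. Among 5 tested flavonoid genes TT4, chalcone synthase, rose from 4.27 to 7.84 CPM (log2 fold change 0.88, SE 0.19, adjusted p = 0.0254 with edgeR). Its libraries overlapped, and its call was lost without any 1 of 6 libraries (wild type 0 h replicate 2, 1 h replicates 1 and 2; mutant 0, 1 and 3 h replicate 2; adjusted p up to 0.0687).

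The 5 most abundant called genes changed by less than 1.5-fold. VLN3, a villin that bundles actin filaments, had 436, 399.7 and 439.8 CPM at 0 h, 248, 293 and 254 at 1 h, and 409, 364 and 357 at 3 h in the wild type. The mutant had 635, 551 and 579.6 CPM at 0 h, 366, 343 and 369.9 at 1 h, and 480.4, 572 and 569 at 3 h. It was 1.39-fold higher and separate at each time (log2 fold change 0.48, SE 0.05, adjusted p = 8.3e-06 with edgeR). AT5G25280, a serine-rich protein, rose from 358 to 412 CPM (log2 fold change 0.20, SE 0.05, adjusted p = 0.0315 with edgeR), but this call was lost in 11 of the 18 fits that left out 1 library, with an adjusted p up to 0.0731. PTM, a PHD-type transcription factor with a transmembrane domain, fell from 276 to 229.6 CPM (log2 fold change -0.27, SE 0.04, adjusted p = 0.00048 with edgeR). EIN3, the ethylene-response transcription factor, fell from 307 to 269 CPM (log2 fold change -0.19, SE 0.04, adjusted p = 0.00899 with edgeR). RAP2.4, an AP2/ERF transcription factor, fell from 311 to 276 CPM (log2 fold change -0.17, SE 0.04, adjusted p = 0.0208 with edgeR), and this call was lost without wild type 0 h replicate 3 or mutant 0 h replicate 3 (adjusted p up to 0.0538).

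Genotype effects were then followed over time. All 255 called genes had the same sign at 0, 1 and 3 h, which a choice by the average over times favours. At each time 3 libraries were set against 3, in 1 fit of all 18 libraries with a variance shared between times. Taken singly in this way, 75 genes (0.357%) were called at 0 h, 55 (0.262%) at 1 h and 58 (0.276%) at 3 h. Of the 255 genes called across times, 44 were called at all 3 single times, 46 at 1 or 2 of them and 165 at none. The test of genotype by time called 0 of 21028 genes with edgeR and 0 with DESeq2. At an unadjusted p under 0.05 there were 521 genes (2.48%) with edgeR and 559 with DESeq2. The edgeR share is below what evenly spread p-values would give at this threshold. The 0 calls therefore do not show that genotype effects were constant over time. Among the 255 called genes 9 (3.53%) had an unadjusted interaction p under 0.05 with edgeR. The smallest, 0.00026, belonged to AT3G41979, annotated as 5.8S ribosomal RNA and named after its values were seen. It averaged 174 CPM in wild-type and 87.9 CPM in mutant seedlings at 0 h, 179 and 85.1 CPM at 1 h, and 127 and 126 CPM at 3 h, and its adjusted interaction p was 1.

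**Figure D3:**
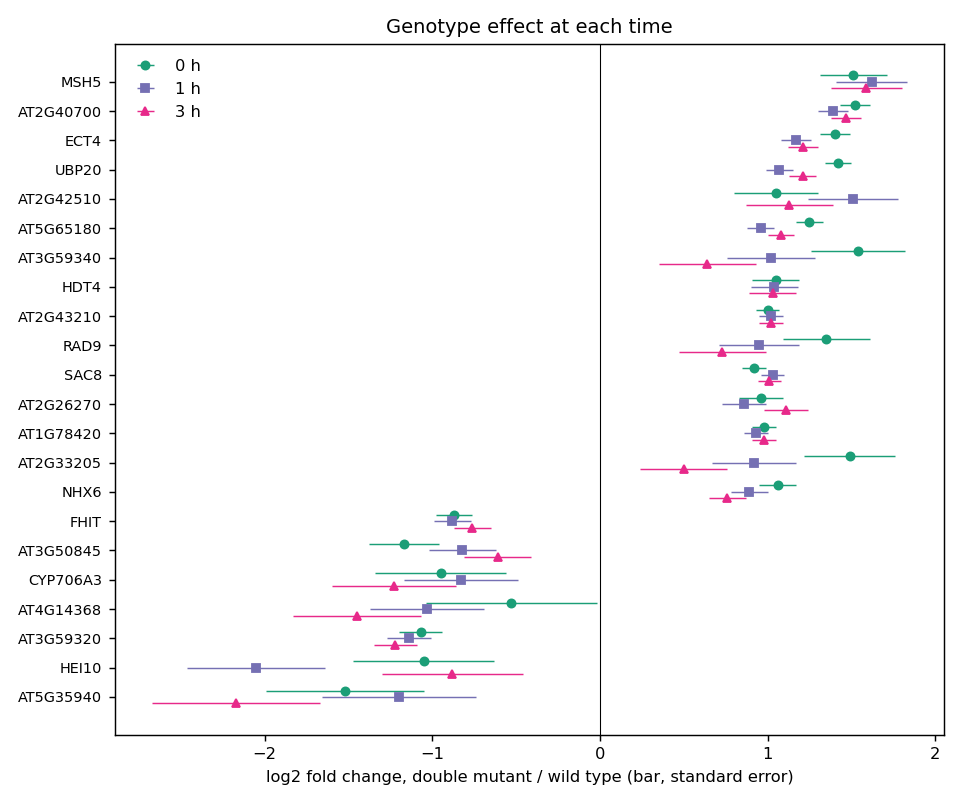
Points give the log2 fold change of the double mutant over the wild type at 0 h (circles), 1 h (squares) and 3 h (triangles). They cover the named genes with the largest changes, leaving out those beyond 2 log2 units. Standard errors come from 1 fit of all 18 libraries, with a mean per genotype and time and a variance shared between times. AT2G43210 stays at 1.00 to 1.02, while AT2G33205 goes from 1.49 at 0 h to 0.50 at 3 h with an unadjusted interaction p of 0.0552.

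Defence genes were examined as 9 lists with 217 distinct genes tested. Of these, 0 were higher and 5 were lower (2.3%, beside 0.39% of all genes called lower), and the median log2 fold change was -0.04. All 29 early pattern-triggered genes, 24 pattern receptors and proximal kinases, 21 salicylic acid genes and 17 intracellular immune receptors were without a call, with single genes between -0.46 and 0.25. PEN3, an ABC transporter of penetration resistance, averaged 2897 CPM in wild-type and 2647 CPM in mutant seedlings (adjusted p = 0.846 with edgeR). NPR1, a receptor for salicylic acid, was at 64.8 and 64.6 CPM (adjusted p = 0.987 with edgeR). BIR1, a receptor kinase that restrains immunity, was at 195 and 189.9 CPM, and the helper immune receptor ADR1-L1 at 238 and 218 CPM, with adjusted p-values of 0.924 and 0.346 with edgeR. A call that was not made does not show that these levels are equal.

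Jasmonate genes gave 3 lower calls of 29, beside 0.39% of all genes, with a list median of -0.18 and 4 members above 0. MYC2, the bHLH factor at the head of jasmonate responses, was at 67.6, 69.7 and 74.7 CPM at 0 h, 91.4, 81.1 and 98.8 at 1 h, and 98.9, 86.3 and 71.7 at 3 h in the wild type. The mutant had 59.8, 69.4 and 53.1 CPM at 0 h, 69.5, 78.1 and 74.5 at 1 h, and 62.8, 60.8 and 58.6 at 3 h. Libraries overlapped (log2 fold change -0.33, SE 0.07, adjusted p = 0.0112 with edgeR), and the call was lost without the 1 h or the 3 h libraries (adjusted p up to 0.202). Its relative MYC3 fell from 149.5 to 131 CPM (log2 fold change -0.19, SE 0.04, adjusted p = 0.0159 with edgeR), a call lost without the libraries of any 1 time (adjusted p up to 0.218) or with library totals alone as scaling. JAZ3, a repressor of the MYC factors, fell from 24.2 to 20.1 CPM (log2 fold change -0.26, SE 0.06, adjusted p = 0.0462 with edgeR), and lost its call in 14 of the 18 fits that left out 1 library (adjusted p up to 0.101). LOX2, an enzyme of jasmonate synthesis and a member with larger values, averaged 29.9 CPM in wild-type and 15.5 CPM in mutant seedlings but was not called (log2 fold change -0.87, SE 0.44, adjusted p = 0.429 with edgeR).

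Of 17 ethylene genes EIN3 alone was called, with a list median of -0.08, and without the libraries of any 1 time its adjusted p was 0.0643 to 0.186. Among 59 WRKY genes the sole call was WRKY39, which fell from 75.4 to 68.7 CPM (log2 fold change -0.13, SE 0.03, adjusted p = 0.0413 with edgeR) and lost its call in 14 of the 18 fits that left out 1 library. Abscisic acid, drought and cold genes had a median of -0.18 with 1 of 17 above 0 and 0 called, and their most abundant member COR47 was at 448 and 396 CPM (adjusted p = 0.273 with edgeR). Aliphatic glucosinolate genes had a median of 0.12 and indole glucosinolate and camalexin genes one of -0.02, each with 0 of 16 called. IMS2, the most abundant aliphatic member on the list, was at 42.9 and 46.9 CPM, and CYP83B1, the most abundant indole member, at 1012 and 919.6 CPM (adjusted p = 0.867 and 0.793 with edgeR). Among 18 circadian clock genes 0 were called and the median was -0.09, with TOC1, the most abundant, at 358 and 323 CPM (adjusted p = 0.198 with edgeR).

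**Figure D4:**
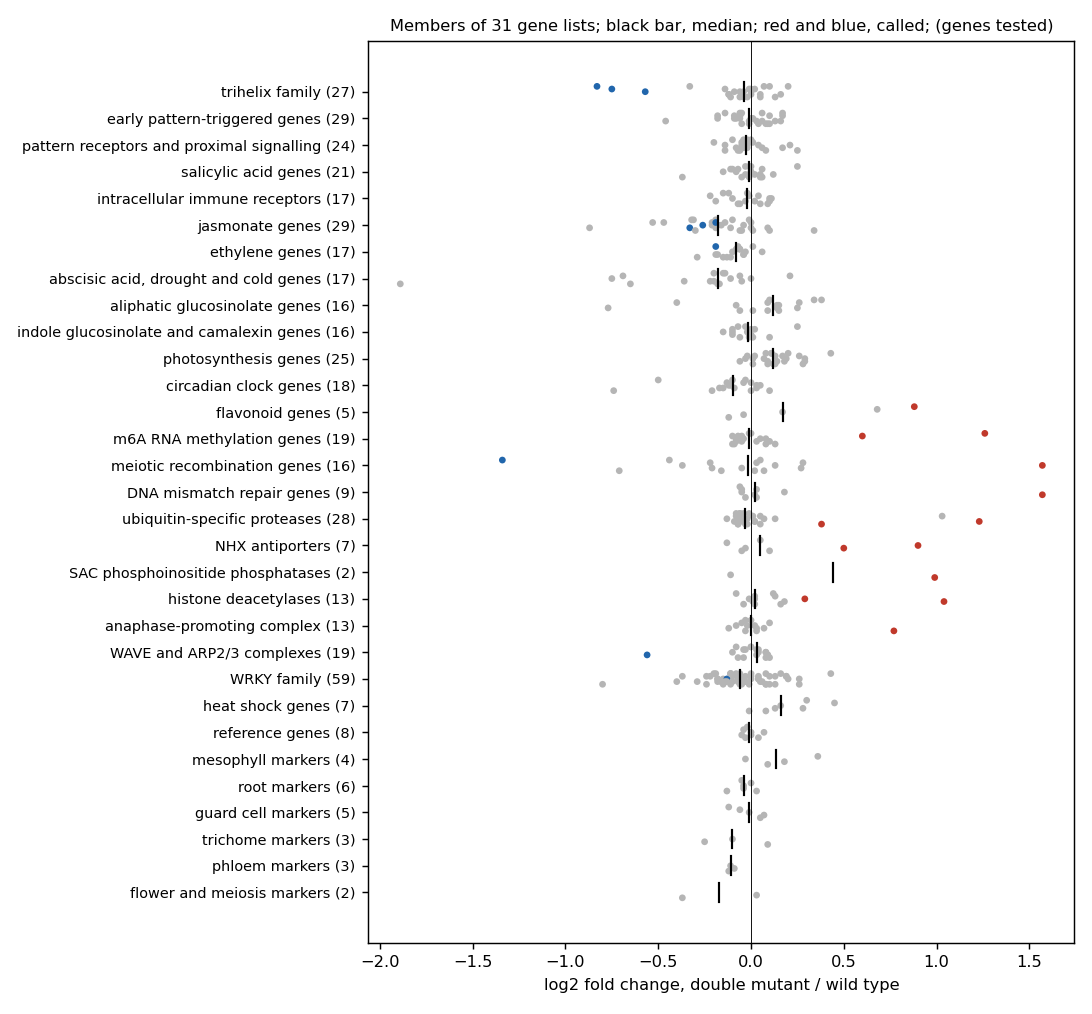
Rows are the 31 gene lists with the number of genes tested in brackets, and the horizontal axis is the log2 fold change of the double mutant over the wild type; red and blue points were called higher and lower, grey points were not called, and black bars are list medians. For ECT4, NHX6, HDT4 and PIR121 the uncalled relatives lie within 0.18 log2 units of 0, while UBP20 has an uncalled relative at 1.03 and the defence lists hold 5 called points, all below 0.

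Markers of seedling tissues were checked for a shift in makeup. Summed levels of 4 mesophyll markers ranged from 2027 to 4673 CPM in wild-type libraries and from 3168 to 5059 CPM in mutant libraries, those of 6 root markers from 78.4 to 129.5 and from 92.9 to 126 CPM. For 5 guard cell, 3 trichome, 3 phloem and 2 flower and meiosis markers the summed ranges of the 2 genotypes overlapped likewise, and 0 markers of any tissue were called. Markers of root and leaf were both detected, while the extraction text speaks of leaves. These sums do not show whether roots were sampled. SCR, a root marker, also reached 23.8 and 31.1 CPM in wild-type leaves. Among single markers, RBCS1A was at 3144 and 3527 CPM, SUC2 of the phloem at 182 and 167 CPM, GL2 of trichomes at 19.8 and 20.8 CPM, and DMC1 of meiosis at 7.55 and 7.74 CPM. SCR of the root was at 39.2 and 38.2 CPM, and FMA, the guard cell factor FAMA, at 35.2 and 34.7 CPM. Of 25 photosynthesis genes 22 were above 0 with a median of 0.12, and 0 were called. Heat shock genes had a median of 0.16 with 0 of 7 called (HSP70 at 264 and 286 CPM), and 8 reference genes ranged from -0.05 to 0.07 (UBQ10 at 2622 and 2592 CPM). In whole seedlings fewer cells of a type and less RNA per cell cannot be told apart.

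Called genes were described by features that the test did not use. Genes not annotated as protein-coding made up 20 of 255 calls (7.84%), beside 3.03% of all tested genes. Both shares count identifiers that the reference lacks, whose type is unknown. The 20 included 8 pseudogenes, 5 transcribed pseudogenes and 1 such identifier. Protein-coding higher genes had a median of 8 exons and lower genes 5, against 4 among all tested protein-coding genes, while median transcript lengths were 1787, 2137 and 1733 bases. These medians are descriptions without a test. Calls were spread over all 5 chromosomes, at 1.08%, 1.42%, 1.30%, 0.87% and 1.37% of tested genes on chromosomes 1 to 5. Within 1 Mb of ASR3 5 of 442 genes (1.13%) were called, and within 1 Mb of AT3G11100 1 of 495 (0.202%), beside 1.21% of all genes.

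Another called gene lay within 20 kb for 22 of 254 called genes with a position (8.66%), beside 10.4% of all tested genes. These 22 formed 11 pairs, of which 6 were both higher, 1 was both lower and 4 were mixed. AT2G40700 adjoined GLY1, a glycerol-3-phosphate dehydrogenase, which rose by 0.41. APC11 lay near AT3G05858, an uncharacterized gene that rose by 1.16. La2 and AT1G79890, a RAD3-like helicase, were both lower (-0.70 and -0.60). AT3G05858 averaged below 1 CPM. The calls of AT3G05858 and AT1G79890 were not kept in every fit that left out 1 library. Without a stated strand setting, reads of neighbours that overlap cannot be told apart.

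Levels in leaves of the AITF1 overexpressor gave a readout from other libraries. Of the 255 genes 235 were tested in leaves and 57 were called there (24.3%, beside 19.8% of all 18639 genes tested in leaves). Among the 73 tested genes that were lower in the double mutant, 21 (28.8%) were higher in OXAITF1 leaves, where 9.36% of all genes were, and 3 (4.11%) were lower, where 10.4% of all genes were. Their median leaf log2 fold change was 0.55, beside 0.05 over all leaf genes. The 21 include AT3G11100, which was picked for its rise in these leaves. Among the 162 tested genes that were higher in the double mutant, 11 (6.79%) were higher and 22 (13.6%) lower in OXAITF1 leaves, with a median of -0.06. The leaf calls rest on 2 libraries per group, and the OXAITF1 pair differed more than any other replicate pair (chi-square over degrees of freedom 75.6, beside 12 for wild-type leaves): leaving out either wild-type leaf library left 0 of these genes called, and so did a fit with the replicate number as a block.

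The 6 genes with the smallest leaf p had opposite signs in the 2 tissues. AT3G11100 itself was lower in the mutant and higher in the overexpressor, as given above, but it was picked for that rise, which is therefore no separate result. MGL, methionine gamma-lyase, was at 12.2 and 8.30 CPM in wild-type leaves and 195 and 148 CPM in OXAITF1 leaves (leaf log2 fold change 4.07, SE 0.29, adjusted p = 0.0141 with edgeR). In seedlings it fell from 197 to 159 CPM (log2 fold change -0.33, SE 0.08, adjusted p = 0.0479 with edgeR). UNE18, an oxysterol-binding protein, went from 4.03 and 5.06 CPM to 44.0 and 42.5 CPM in leaves, and fell from 62.4 to 53.9 CPM in seedlings (log2 fold change -0.21, SE 0.04, adjusted p = 0.0203 with edgeR). PSB28, a photosystem II protein, went from 101 and 108 CPM to 22.2 and 20.2 CPM in leaves and rose from 18.5 to 25.4 CPM in seedlings (log2 fold change 0.46, SE 0.11, adjusted p = 0.0392 with edgeR). CBL10, a calcium sensor, went from 30.9 and 31.5 CPM to 10.8 and 10.8 CPM in leaves and rose from 23.7 to 27.8 CPM in seedlings (log2 fold change 0.25, SE 0.06, adjusted p = 0.0334 with edgeR). AT5G01590, annotated as an ATXR3-like protein, had 147 and 141 CPM in wild-type and 46.5 and 52.8 CPM in OXAITF1 leaves, and rose from 47.8 to 56.4 CPM in seedlings (log2 fold change 0.24, SE 0.06, adjusted p = 0.0452 with edgeR). Apart from AT3G11100 these seedling changes were small with overlapping libraries: the calls of MGL, PSB28, CBL10 and AT5G01590 were lost in 12 to 14 of the 18 fits that left out 1 library, and that of UNE18 without wild type 0 h replicate 3 (adjusted p = 0.0526).

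Several of the genes with strong seedling effects were not called in leaves. AT2G40700, ECT4, UBP20, SAC8, MSH5 and AT2G43210 had leaf log2 fold changes between -0.26 and 0.57, with 0 of them called. NHX6 and AT1G78420 were higher in both tissues, with leaf log2 fold changes of 0.99 and 0.95 (adjusted p = 0.0379 and 0.0387 with edgeR), as was ECT3 at 0.60 (adjusted p = 0.0484 with edgeR). So were AT5G25280 at 1.39 and HD2C at 0.61 (adjusted p = 0.0376 and 0.0412 with edgeR). JAZ3 was lower in both tissues, at -0.68 in leaves (adjusted p = 0.0395 with edgeR), as was AT3G28915.

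**Figure D5:**
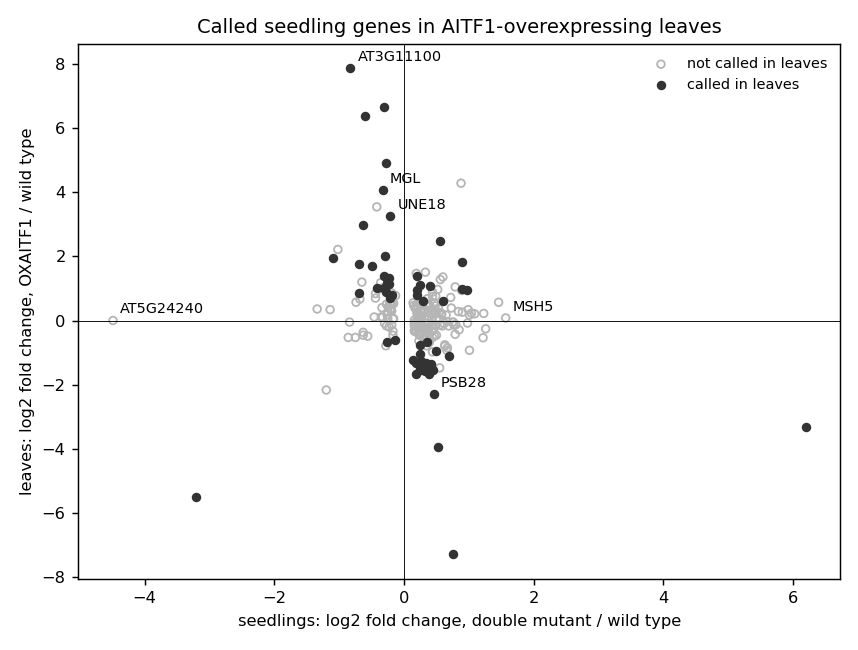
Each of 235 points is a gene called in the seedling comparison, with its seedling log2 fold change (double mutant over wild type) on the horizontal axis and its leaf log2 fold change (OXAITF1 over wild type) on the vertical axis; filled points were called in leaves. Filled points left of 0 lie mostly above the line (21 higher, 3 lower), while AT5G24240 and MSH5 sit near a leaf value of 0.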

How the data were processed

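RNA-seq read counts per gene were analysed for 18 seedling and 4 leaf libraries, grouped by their labels. The authors deposited whole-number counts, not normalized, as one table per tissue and one file per library, and 22 of 22 files matched the tables. Per the submitters' processing notes, HISAT2 2.1.0, featureCounts and Subread 1.6.5 were used with TAIR10. No source used here states the annotation release, the strand setting or the treatment of multi-mapping reads, so near-identical or overlapping genes are uncertain. The tables carry no coordinates. Symbols, positions and upstream sequence come from RefSeq TAIR10.1, which held 32830 of 33318 identifiers.

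Genes were filtered with filterByExpr, scaled with TMM and tested with edgeR 4.0.16 (glmQLFit, glmQLFTest, two-sided) in R 4.3.3, with time and genotype as terms (14 residual degrees of freedom) and Benjamini-Hochberg adjustment over all tested genes. Genotype by time was fitted with 12 residual degrees of freedom, and leaves separately. Standard errors derive from the F statistic. The procedure was tested on simulated counts. Replicates differed by more than sampling noise (chi-square over degrees of freedom from 6.97 to 27.1 in seedlings, 12 in wild-type and 75.6 in OXAITF1 leaves), so none was a repeated deposit.

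The comparison, the 31 gene lists and the naming rule were chosen with earlier results of these data known. Named genes were ASR3 and AT3G11100; the 16 highest and 10 lowest called log2 fold changes with a mean of at least 1 CPM; the 5 most abundant called genes; up to 4 called members of each list, or its most abundant member where 0 were called; and the 6 called genes with the smallest leaf p. UBP11, SAC9, LOX2 and the neighbouring gene pairs were named after their values were seen. Alternatives covered scaling, filters, DESeq2 1.42.0, a replicate block, an averaged contrast, single times, and leaving out each library or time.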

Additional observations from a re-analysis of the deposited data

How the results depend on the processing

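Without wild type 0 h replicate 1 the lower calls rose from 82 to 163, beside 201 higher calls. Leaving out each library in turn gave 204 to 364 called genes, of which 139 to 201 were higher and 61 to 163 lower. DESeq2 called 608 genes (280 higher, 328 lower). Single times gave 75 genes at 0 h (62 higher, 13 lower), 55 at 1 h (41 higher, 14 lower) and 58 at 3 h (47 higher, 11 lower). Without 0 h there were 118 calls (82 higher, 36 lower), without 1 h 102 (82 higher, 20 lower) and without 3 h 126 (98 higher, 28 lower), in fits with fewer libraries. List members called fell from 22 to 13 without 1 h and to 14 without 3 h. Other scalings and filters kept 215 to 244 of the 255 genes among their calls. Of the called genes, 57 were called in leaves, 92 with library totals alone as scaling and 0 with the replicate block. Leaving out 1 leaf library gave 0 (either wild-type library) to 81; the cause was not tested.

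The replicate number as a block gave 294 calls in seedlings (193 higher, 101 lower), 251 of them shared, and the call of WRKY39 was lost. No source used here says that a shared number marks a shared batch. Of 9 same-number pairs, 4 had a correlation of deviations over 0.1, so the numbers were not treated as pairs, yet for 13 of 18 libraries the closest library of another group carried the same number, as a hint from the data. In the interaction 0 genes were called with or without the block.

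Of 50 named called genes 0 changed sign and 29 kept their call in every alternative other than the comparisons at a single time. Signs changed for named genes that were not called: PEN3 (0.03 at 0 h alone), NPR1 (-0.05 at 1 h alone, -0.01 with RLE size factors and with DESeq2, -0.02 without 0 h, -0.03 to 0.03 when a library was left out), GL2 (-0.13 at 0 h alone, -0.05 without 3 h), DMC1 (-0.01 to 0.07 when a library was left out), FMA (0.13 at 1 h alone, 0.01 with library totals, 0.05 without 0 h, 0.00 without 3 h, -0.07 to 0.04 when a library was left out), SCR (0.05 at 3 h alone), UBQ10 (0.00 at 1 h alone and -0.05 to 0.00 when a library was left out), IMS2 (-0.54 at 3 h alone, -0.08 without 0 h, -0.06 without 1 h) and BIR1 (0.00 at 0 h alone and -0.10 to 0.00 when a library was left out). Calls lost when 1 library was left out stand beside the values, as do most calls lost without a time. Leaving out any 1 time also ended those of AT5G01380, AT5G01590, AT5G25280, CBL10, JAZ3, MGL, PSB28, RAP2.4 and WRKY39, and leaving out 1 h or 3 h those of TT4 and UNE18. Library totals alone ended the calls of MGL, RAP2.4, WRKY39, JAZ3, UNE18 and MYC3, the averaged contrast those of MGL, WRKY39, AT4G14368, PSB28 and AT5G01590, the lack of a filter those of WRKY39, JAZ3 and AT5G01380, and RLE size factors that of AT5G01590. Depth limits genes near 1 CPM, where libraries hold about 20 counts.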
